A study of Bos taurus with 4 samples.

Results

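The HOX genes encode homeodomain transcription factors that lie side by side in 4 clusters, HOXA, HOXB, HOXC and HOXD. The members were the rows of the gene count table whose symbol is HOX, a cluster letter and a paralog number, and this gave 37 of the table's 31021 genes: 11 of HOXA, 8 of HOXB, 9 of HOXC and 9 of HOXD. HOXB5 and HOXB8 were not analysed here. RNA-seq was run on primary epithelial cells that enzyme digestion released from the mammary gland of Chinese Holstein cows, with 1 library named HH and 1 named LL. The study set cows whose milk held 4.85% fat against cows whose milk held 3.41%, but the titles do not spell out HH and LL and the phenotype label of both RNA-seq libraries reads high milk fat, so each difference is given as HH against LL. Both libraries share cell type, tissue, breed and feeding. The number, age and pooling of the cows, and the time in culture, are unstated in the labels.

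Within a cluster the genes are ordered along the chromosome by paralog number, and members of different clusters that share a number, called a paralog group, arose by duplication of an ancestral cluster. In vertebrate embryos low-numbered genes are used towards the head and high-numbered genes towards the tail and the tips of the limbs and the genital tract, and adult cells keep part of that pattern through chromatin regulators of the Polycomb and Trithorax groups. HOX proteins bind DNA together with PBX, MEIS and PKNOX proteins, which are homeodomain factors of the TALE class. In the mouse, Hoxc8 takes part in placing the mammary buds along the flank, and the group 9 genes Hoxa9, Hoxb9 and Hoxd9 together are needed for the mammary gland to develop in pregnancy and lactation.

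The HH column summed to 17369144 counts and the LL column to 16318951. Levels are counts per 1000000 (CPM) after TMM scaling, a method that sets the libraries on one scale through the bulk of genes. The HH over LL ratio is given on the log2 scale with an exact 95% binomial interval. With 1 library per title there is no replicate check and no p-value, intervals cover counting error of reads only, and each comparison is between these libraries and not between conditions. Transcript lengths were not used here, and counts are not scaled by length, so a higher count of one HOX gene than another is a statement about reads and not about molecules. Markers of epithelium and of other cell types were both read. EPCAM and KRT8, of luminal epithelium, stood at 461 and 948 CPM in HH and 389 and 646 in LL, while the endothelial gene PECAM1 stood at 237 and 285 CPM, the leukocyte gene PTPRC at 46.6 and 34.0, and the fibroblast gene PDGFRA at 111 and 74.5.

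HOX transcripts of paralog groups 1 to 10 were read in both libraries, and those of groups 11 to 13 were nearly absent. All 37 genes together had 2967 counts in HH and 2348 in LL, which is 0.0171% and 0.0144% of the library. Of the 28 genes in groups 1 to 10, 25 had at least 20 summed counts. Of the 9 genes in groups 11 to 13, 7 had no count in either library: HOXA13, HOXB13, HOXC11, HOXC12, HOXD11, HOXD12 and HOXD13. The other members of these groups were HOXA11, with 0 counts in HH and 1 in LL, and HOXC13, with 0 and 2. These genes have known roles in the uterus (HOXA11, mouse), the digits and genital tract (HOXA13 and HOXD13, mouse), the prostate (HOXB13, human) and hair and nails (HOXC13, human and mouse). As a one-sided 95% limit a count of 0 allows up to 3 counts, a level of 0.170 CPM in HH and 0.187 CPM in LL.

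**Figure D1:**
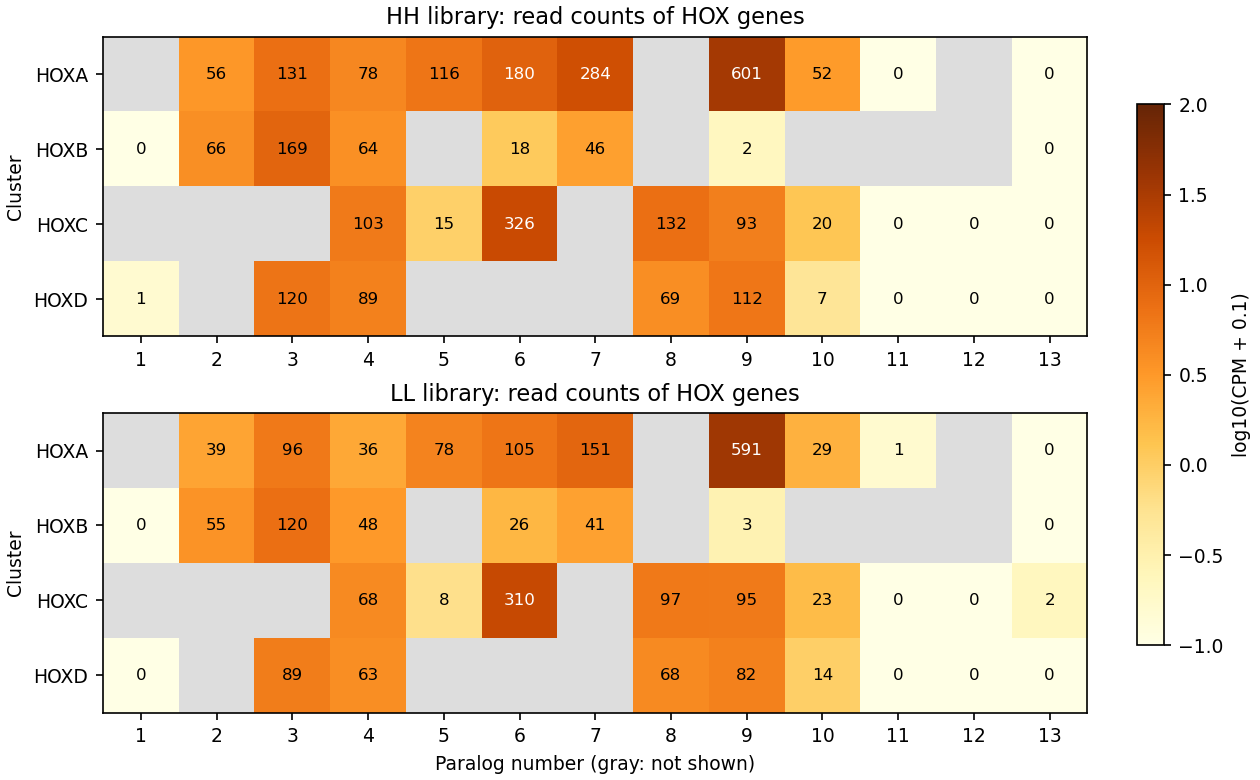
Read counts (numbers) and log10(CPM + 0.1) (colour) of HOX genes by cluster (rows) and paralog number (columns) in the HH and LL libraries, 1 library each, not scaled by transcript length; gray fields have no row of that name in the table or are not shown. Counts fall to 0, 1 or 2 from paralog number 11 onwards in both libraries, and HOXA9 has the most reads, 601 and 591.

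The place along the cluster where most reads stopped could be seen for HOXA, HOXC and HOXD, but not for HOXB. In HOXA, HOXC and HOXD reads went on through paralog number 10: HOXA10, a uterine gene in the mouse, had 52 counts in HH and 29 in LL, HOXC10 had 20 and 23, and HOXD10 had 7 and 14. In HOXB few reads were counted past HOXB7, which had 46 and 41 counts, and HOXB9 had only 2 and 3. HOXB8, between them, was not analysed, and its annotated span overlaps that of HOXB9. Where reads stopped in HOXB is therefore uncertain. The other group 9 genes had many more reads than HOXB9, with 601 and 591 for HOXA9, 93 and 95 for HOXC9 and 112 and 82 for HOXD9. At the low-numbered end, HOXB1, which acts in the hindbrain of the mouse embryo, had no count and HOXD1 had 1 in HH and 0 in LL. The set of HOX genes with reads was thus nearly the same in both libraries, and over the 37 genes the counts of HH and LL had a Spearman rho of 0.98, a description over genes that share the same transcripts and lengths.

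Reads were unevenly spread over clusters and paralog groups. HOXA took 51.1% of the HOX reads in HH (exact interval 49.2 to 52.9%) and 48.4% in LL (46.3 to 50.4%). HOXC took 23.2% (21.7 to 24.8%) and 25.7% (23.9 to 27.5%). HOXD, at 13.4% and 13.5%, and HOXB, at 12.3% and 12.5%, took less, and the intervals of the libraries overlapped for each cluster. HOXB would hold more genes with HOXB5 and HOXB8 counted. Group 9 took the most reads of all paralog groups, 27.2% in HH (25.6 to 28.9%) and 32.8% in LL (30.9 to 34.8%), and here the intervals did not overlap. HOXA9 made up 74.4% of the group 9 reads in HH and 76.7% in LL. Group 6, mainly HOXC6, followed at 17.7% and 18.8%, and group 3 at 14.2% and 12.99%.

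**Figure D2:**
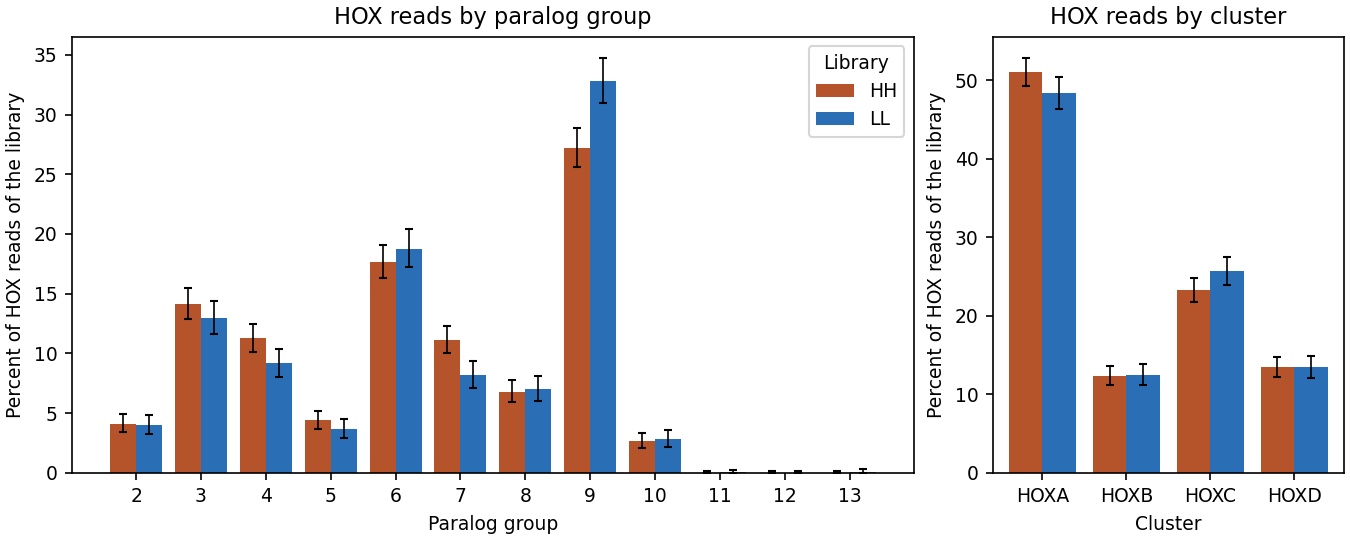
Percent of all HOX reads of a library (y axis) by paralog groups 2 to 13 (left) and by cluster (right) for HH and LL, with exact 95% binomial intervals as error bars. Group 9 is the tallest in both libraries, at 27.2% in HH and 32.8% in LL, and HOXA the tallest cluster at 51.1% and 48.4%.

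The comparison of HH with LL asked whether HOX genes differed between the libraries. The summed HOX level was 168 CPM in HH and 146 CPM in LL, with a log2 ratio of 0.20 (0.12 to 0.28). No single HOX gene had its whole interval past 2-fold in either direction. A gene was called when its whole interval lay past 2-fold and it had at least 100 summed counts. By this rule 0 of 17 HOX genes were called in either direction, and 2.87% of all 12804 genes with at least 100 summed counts were. That set was not limited to the range of the 17 HOX genes, 112 to 1192 summed counts. At a background that low, 0 calls among 17 genes says little about the members. With at least 20 summed counts 0 of 25 were called, and 3.19% of all genes. The largest ratio among the 17 was that of HOXA4, whose interval reached past 2-fold but also lay well below it.

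Smaller differences leaned towards HH. The median log2 ratio over the 25 genes with at least 20 counts was 0.31 (quartiles −0.06 and 0.46), beside a median of −0.01 (quartiles −0.26 and 0.28) over all 16249 genes of that depth. Of the 25, 18 (72.0%) had a ratio above 0 and 7 below it, while 49.0% of all genes of that depth had a ratio above 0. By a rule added after seeing the data, the interval lay wholly above 0 for 6 of the 17 HOX genes with at least 100 counts, or 35.3%. Among all 7382 genes in the range of summed counts of these 17, 112 to 1192, it was 23.8%. The interval lay wholly below 0 for none of the 17, beside 22.7% of the 7382. The count of 6 fell to 3 of 17, or 17.6%, under upper-quartile scaling, which shifts every ratio by −0.02, beside 22.6% of the 7382 under the same scaling.

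**Figure D3:**
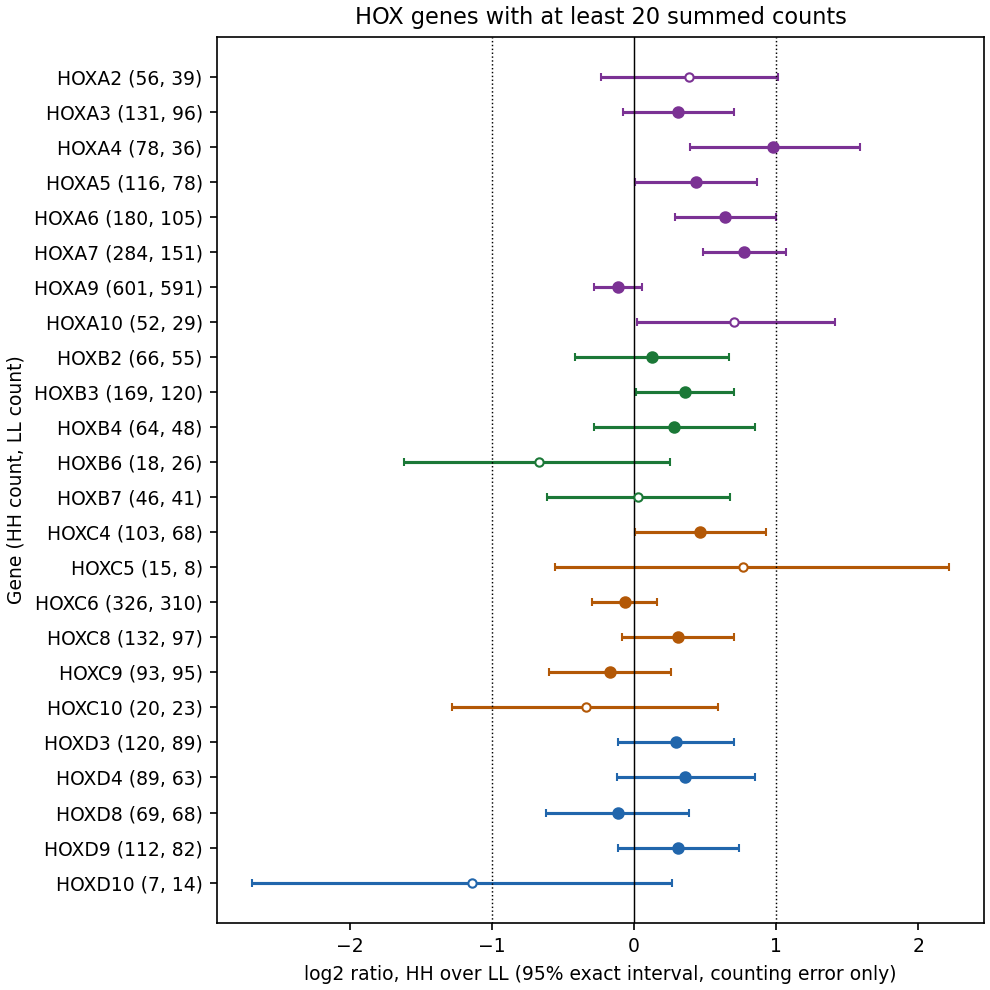
Log2 ratio of HH over LL (x axis) with exact 95% interval for 24 HOX genes with at least 20 summed counts, by cluster (colour) and with the HH and LL counts beside each name; filled points have at least 100 summed counts and dotted lines mark 2-fold. HOXA4, HOXA6 and HOXA7 lie above 0 and HOXA9 does not.

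Among the 17 HOX genes with at least 100 counts, the 3 highest ratios were in HOXA. HOXA4 had 78 counts in HH and 36 in LL, or 4.42 and 2.24 CPM, a log2 ratio of 0.98 (0.39 to 1.59). HOXA7 had 284 and 151 counts, or 16.1 and 9.41 CPM, a ratio of 0.77 (0.48 to 1.07). HOXA6, the neighbour of HOXA7, had 180 and 105 counts, 10.2 and 6.54 CPM, and a ratio of 0.64 (0.28 to 1.001). These genes belong to the middle of the cluster, and all 3 intervals lay above 0. HOXA5, needed for lung development in the mouse, had 116 and 78 counts and 0.44 (0.01 to 0.87). HOXA3, needed for the mouse thymus and parathyroid, had 131 and 96 counts and 0.31 (−0.08 to 0.71). Both had more reads in HH, but the interval of HOXA3 held 0 and that of HOXA5 only just cleared it.

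HOXA9, which has roles in blood stem cells in mouse and human besides the mammary role named above, did not differ between the libraries beyond counting error. It had 601 counts in HH and 591 in LL, or 34.0 and 36.8 CPM, a log2 ratio of −0.11 (−0.28 to 0.05). This interval did not overlap those of HOXA4, HOXA6 and HOXA7. HOXA9 took 52.0% of the HOXA reads in LL (49.1 to 55.0%) and 39.7% in HH (37.2 to 42.2%). The HOXA genes of groups 1 to 8, summed, had 862 counts in HH and 515 in LL, a ratio of 0.61 (0.45 to 0.77). The HOXA genes of groups 9 to 13 had 653 and 621, a ratio of −0.06 (−0.23 to 0.10). HOXA9 held 601 and 591 of these counts, and HOXA10, also in this sum, was at 0.70 (0.02 to 1.41). The sum of all HOXA genes, 1515 counts against 1136, had a ratio of 0.28 (0.17 to 0.39), and without HOXA9 it was 0.61 (0.45 to 0.76). Without HOXA9 the ratio of all HOX genes was 0.29 (0.20 to 0.38).

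In HOXB, all 3 genes with at least 100 counts had more reads in HH after scaling. HOXB3 had 169 counts in HH and 120 in LL, or 9.57 and 7.48 CPM, a log2 ratio of 0.36 (0.01 to 0.71). HOXB4, known for expanding mouse and human blood stem cells, had 64 and 48 counts and 0.28 (−0.28 to 0.85). HOXB2, a hindbrain gene in the mouse, had 66 and 55 counts and 0.13 (−0.41 to 0.67). Of these only the interval of HOXB3 lay above 0. HOXB7, which is often overexpressed in human breast cancer, was at 0.03 (−0.61 to 0.67). Summed, HOXB had 365 and 293 counts and a ratio of 0.18 (−0.05 to 0.41), an interval that held 0.

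In HOXC the genes went both ways. HOXC6 had 326 counts in HH and 310 in LL, or 18.5 and 19.3 CPM, a log2 ratio of −0.06 (−0.29 to 0.16). HOXC8, the mammary bud gene of the mouse, had 132 and 97 counts, 7.48 and 6.04 CPM, and a ratio of 0.31 (−0.08 to 0.70). HOXC9 had 93 and 95 counts and −0.17 (−0.60 to 0.26). HOXC4 had 103 and 68 counts and 0.46 (0.01 to 0.92). HOXC4 was the only one of these whose interval lay above 0, and only just. HOXC summed to 689 counts in HH and 603 in LL, a ratio of 0.05 (−0.10 to 0.21), which was the smallest of the 4 clusters and overlapped the other 3 intervals.

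In HOXD no interval excluded 0. HOXD3, which patterns the neck vertebrae of the mouse, had 120 counts in HH and 89 in LL, or 6.80 and 5.54 CPM, a log2 ratio of 0.29 (−0.11 to 0.71). HOXD4 had 89 and 63 counts and 0.36 (−0.12 to 0.85). HOXD9, the remaining group 9 gene with a mammary role in the mouse, had 112 and 82 counts and 0.31 (−0.11 to 0.74). HOXD8 had 69 and 68 counts and −0.12 (−0.62 to 0.39). HOXD8 was thus the only one of these with a lower level in HH. HOXD summed to 398 and 316 counts and 0.20 (−0.02 to 0.41).

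The 8 HOX genes with 20 to 99 summed counts had log2 ratios from −1.14 (HOXD10, −2.69 to 0.27) to 0.77 (HOXC5, −0.56 to 2.21). The interval excluded 0 for 1 of them, HOXA10, at 0.70 (0.02 to 1.41). HOXA2 was at 0.38, HOXB6 at −0.67 and HOXC10 at −0.34, all with intervals that held 0. At this depth a difference of 2-fold could not be told from none for HOXA2, HOXB6, HOXC5, HOXC10 and HOXD10.

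By paralog group, groups 3, 4, 5 and 7 had sums with intervals above 0. The intervals of groups 2, 6, 8 and 10, at log2 ratios of 0.24 (−0.16 to 0.64), 0.11 (−0.07 to 0.30), 0.15 (−0.16 to 0.45) and 0.12 (−0.37 to 0.62), held 0 and overlapped that of group 9. The interval of group 5, at 0.47 (0.066 to 0.88), lay above 0 but also overlapped that of group 9, which reached 0.074. Group 7, HOXA7 and HOXB7, had 330 counts in HH and 192 in LL, with a log2 ratio of 0.64 (0.38 to 0.91). This came from HOXA7, since HOXB7 was at 0.03. Group 4, with a member in every cluster, had 334 and 215 counts and 0.50 (0.25 to 0.75), and its 4 members had ratios of 0.98, 0.28, 0.46 and 0.36 in HOXA4, HOXB4, HOXC4 and HOXD4. Group 3 had 420 and 305 counts and 0.32 (0.11 to 0.54), with HOXA3, HOXB3 and HOXD3 at 0.31, 0.36 and 0.29. Members of groups 3 and 4 had the same sign in every cluster that holds them. The intervals of HOXA3, HOXB4, HOXD3 and HOXD4 held 0, however, and some of these genes overlap in span, so their reads are not fully separate.

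Group 9 had 808 counts in HH and 771 in LL, with a log2 ratio of −0.07 (−0.21 to 0.07). In a split made after the values were seen, the genes of groups 1 to 8 summed to 2080 and 1508 counts. Their ratio was 0.33 (0.23 to 0.42), and this interval did not overlap that of group 9. HOXA held 862 and 515 of the counts of groups 1 to 8, at 0.61, and HOXA9 held 601 and 591 of those of group 9. In HOXB, HOXC and HOXD the interval of groups 1 to 8 held 0. Of the 19 genes of groups 1 to 8 with at least 20 counts, 16 had a ratio above 0, and of the 6 in groups 9 and 10 it was 2, HOXA10 and HOXD9. Within HOXA, as given above, the intervals of the low- and high-numbered sums did not overlap. The high-numbered HOXA sum was mostly HOXA9, so this contrast sets HOXA9 against the other HOXA genes more than one end of the cluster against the other. In HOXC the sums were 0.12 (−0.06 to 0.29) for groups 1 to 8 and −0.22 (−0.61 to 0.16) for groups 9 to 13, and in HOXD 0.21 (−0.05 to 0.47) and 0.17 (−0.23 to 0.58), with overlapping intervals in both. In HOXB groups 9 to 13 had 2 counts in HH and 3 in LL, at −0.72 (−4.30 to 2.403), and groups 1 to 8 were at 0.19 (−0.04 to 0.41). Over the 25 genes paralog number and log2 ratio had a Spearman rho of −0.38, given as a description of genes that share libraries and in part overlap.

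**Figure D4:**
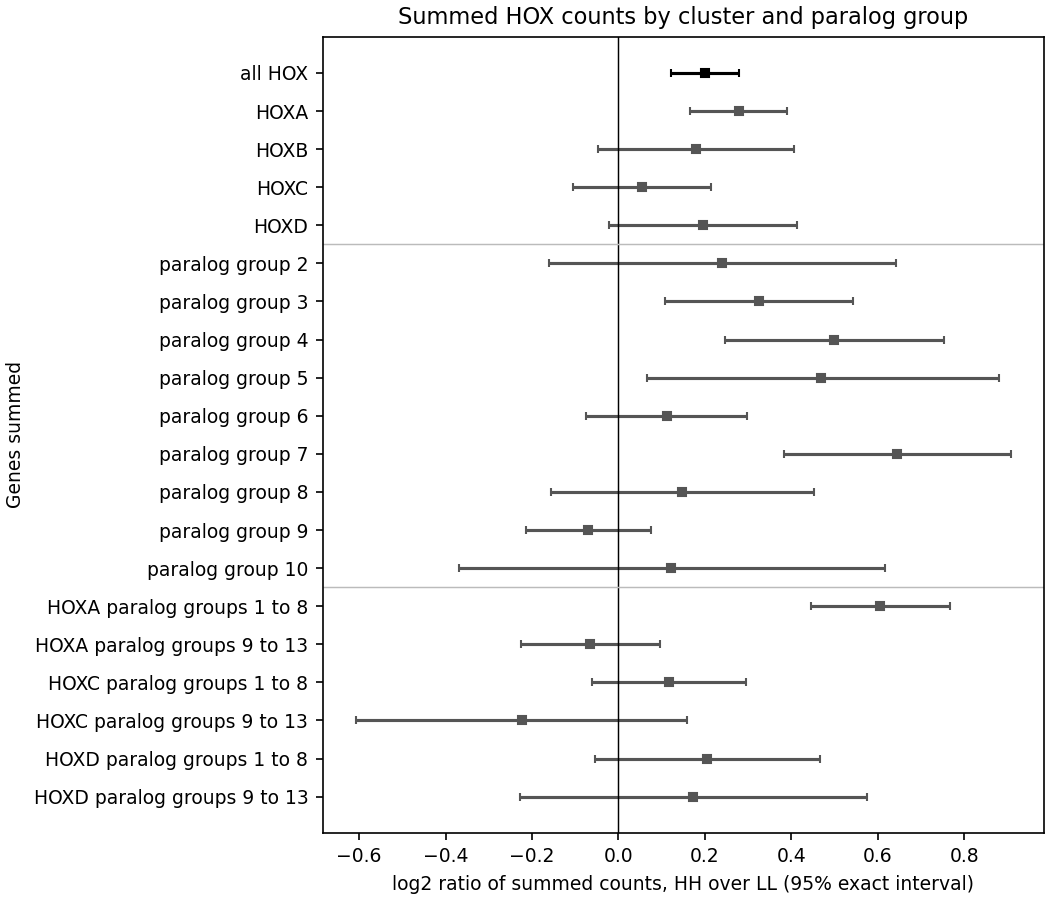
Log2 ratio of HH over LL (x axis) with exact 95% interval for summed HOX counts: all HOX and the clusters (top), paralog groups 2 to 10 (middle), and low- and high-numbered groups within HOXA, HOXC and HOXD (bottom). HOXA groups 1 to 8 lie at 0.61 and HOXA groups 9 to 13 at −0.06, with intervals that do not overlap. The latter sum is mostly HOXA9, and HOXA10 alone is at 0.70.

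HOX genes lie close together, and 12 of the 37 have annotated spans that overlap another HOX gene in RefSeq's gene table for ARS-UCD2.0, a source here of names and neighbours only. They are HOXA3 to HOXA6, HOXB3, HOXB4, HOXB6 and HOXB9, and HOXD3, HOXD4, HOXD10 and HOXD11. How the counting treated shared or opposite-strand reads is unstated, so the split of reads among these genes is uncertain. The summed ratio over the 25 genes with no such overlap was 0.12 (0.02 to 0.21), against 0.20 for all. HOXA7 and HOXA9 are among these 25.

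Other transcripts also lie within the HOX clusters. Of the 20 other genes that RefSeq places inside the clusters, 13 had a row in the count table, 5 of them long noncoding RNAs. LOC100848766, which overlaps HOXB3, had 122 counts in HH and 92 in LL, with a log2 ratio of 0.27 (−0.13 to 0.68), close to the 0.36 of HOXB3. LOC100848443, next to HOXA2, had 37 and 16 counts and 1.07 (0.19 to 2.02). LOC101907194, between HOXC10 and HOXC11, had 0 in HH and 8 in LL. It was named after its values were seen. A row named only by a LOC number and described in the table as Hox-B8-like, LOC100337349, had 3 and 1 counts.

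The HOX clusters also hold miRNA genes. RefSeq places MIR10A between HOXB5 and HOXB4, inside the span of HOXB3, and MIR10B inside the span of HOXD4. MIR196B lies between HOXA10 and HOXA9, MIR196A-1 inside the span of HOXB9 and MIR196A-2 between HOXC9 and HOXC10. The most abundant tag of each kind in the small RNA files of the HH and LL codes is shown to let the sequences be compared. Capitals mark the seed, bases 2 to 8, which guides target pairing:
bta-mir-10a: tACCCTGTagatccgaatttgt
bta-mir-10b: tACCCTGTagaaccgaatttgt
bta-mir-196a-1: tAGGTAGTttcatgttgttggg
bta-mir-196b: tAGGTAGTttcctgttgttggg
The miR-10 tags share one seed and the miR-196 tags another. The precursor bta-mir-196a-1 had 256 HH reads and 99 LL reads, at a ratio of 1.67 (1.33 to 2.02), and bta-mir-196b had 114 and 28, at 2.33 (1.72 to 2.98). Both were past 2-fold in HH, as were 16.8% of the 143 precursors with at least 100 reads, and 11.2% were past 2-fold in LL. Their neighbours HOXA9 and HOXA10 stood at −0.11 and 0.70, and HOXB9 had 2 and 3 counts. In the RNA-seq libraries MIR196B itself had 13 counts in HH and 14 in LL, at −0.24 (−1.45 to 0.95), and MIR196A-1 had no count. These are RNA-seq reads and not small RNA reads. The tag of bta-mir-196a-2 (47 and 12 reads) begins with the same 22 bases as that of bta-mir-196a-1, so reads of these copies cannot be told apart by it. The more abundant bta-mir-10a and bta-mir-10b, with 1986 and 1359 reads in HH and 2732 and 1379 in LL, were at −0.16 and 0.28. Both depended on the scaling, since DESeq2 size factors shift every precursor by −0.18 and the upper quartile by −0.30. With these bta-mir-10a was at −0.34 (−0.43 to −0.26) and −0.46 (−0.55 to −0.38), and bta-mir-10b at 0.10 (−0.01 to 0.20) and −0.02 (−0.13 to 0.09).

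The TALE cofactors of HOX proteins leaned the same way as the HOX genes. Of the 9 genes 8 had at least 20 counts, and all 8 had a ratio above 0, although that of MEIS1, 0.01, is smaller than the shift of −0.02 by upper-quartile scaling. The median was 0.51, and none of 7 with at least 100 counts was past 2-fold, where 2.87% of all genes were. MEIS3 had 249 counts in HH and 140 in LL, or 14.1 and 8.72 CPM, and a log2 ratio of 0.69 (0.39 to 1.002). PBX2, which had the most reads of the list, was at 0.29 (0.20 to 0.38) with 2505 and 1861 counts. MEIS1 and PKNOX1 were at 0.01 (−0.36 to 0.37) and 0.11 (−0.12 to 0.35), and both intervals held 0.

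Retinoic acid switches on HOX genes in the embryo through the receptors RARA, RARB and RARG. Of 18 genes of this pathway 13 had at least 20 counts, with a median log2 ratio of 0.72, or 0.07 over the 11 with at least 100. Of these 11, 1 was past 2-fold in HH, where 1.87% of all genes were, and none in LL. It was DHRS3, an enzyme that turns retinal back to retinol and a known target of retinoic acid, with 5517 counts in HH and 1941 in LL, a ratio of 1.37 (1.29 to 1.44). RARB, which retinoic acid itself induces, had 126 and 41 counts and 1.48 (0.96 to 2.03), an interval that reached just under 2-fold. By total counts 2 genes of the list were past 2-fold. STRA6, the cell surface receptor of retinol binding protein, was at 1.39 (0.89 to 1.92). On the other side ALDH1A3, which makes retinoic acid, had 95 and 188 counts and −1.12 (−1.49 to −0.76). CYP26A1, which breaks retinoic acid down, and RXRG had no count in either library.

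The chromatin regulators of HOX genes were closer to level. The Polycomb list, whose proteins keep HOX genes silent, had a median log2 ratio of −0.10 over 27 genes. None of 26 with at least 100 counts was past 2-fold, where 2.87% of all genes were, so 0 calls says little. The extremes were CBX8, a subunit that reads the silencing mark, with 48 and 98 counts and −1.17 (−1.70 to −0.65), PCGF6 at −0.63 (−1.15 to −0.12), PHC1 at 0.32 (0.18 to 0.47) and PHF19 at 0.55 (0.34 to 0.77). The Trithorax list with the demethylases of that mark, which keep HOX genes active, had a median of −0.01 over 16 genes, or 0.04 by total counts. With at least 100 counts it had none past 2-fold, beside 2.87% of all genes. It ran from SETD1B and KMT2B, both at −0.24, to the menin gene MEN1 at 0.29 (0.12 to 0.46) and the demethylase KDM6B at 0.42 (0.30 to 0.54).

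Other homeobox genes that pattern the body axis and limbs had a median log2 ratio of 0.14 over the 21 of 35 with at least 20 counts. None of 14 with at least 100 was past 2-fold, where 2.87% of all genes were. Among the 21, 1 was past 2-fold in HH, where 3.19% of all genes of that depth were past it in either direction. It was IRX6, with 29 counts in HH and 4 in LL, at 2.72 (1.21 to 4.69). PRRX2 and MEOX1, genes of embryonic mesenchyme and somites in the mouse, were highest of the 14, at 1.10 (0.58 to 1.65) and 0.95 (0.57 to 1.34). HHEX and SIX5 were lowest, at −0.36 (−0.79 to 0.06) and −0.56 (−0.83 to −0.30). The CDX1, CDX2 and CDX4 genes, which drive HOX genes in the embryo, and EVX1, next to HOXA13, had no count. Genes flanking the clusters had a median of −0.05 over 11, as far from 0 as the shift of 0.05 by total counts. With at least 100 counts these genes had none past 2-fold, beside 2.87% of all genes. They ran from SMUG1 at −0.65 (−0.93 to −0.37) and SNX11 at −0.42 (−0.69 to −0.15) to SKAP1 at 0.22 (−0.27 to 0.71) and SKAP2, beyond the low-numbered end of HOXA in mammals, at 0.76 (0.56 to 0.96).

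**Figure D5:**
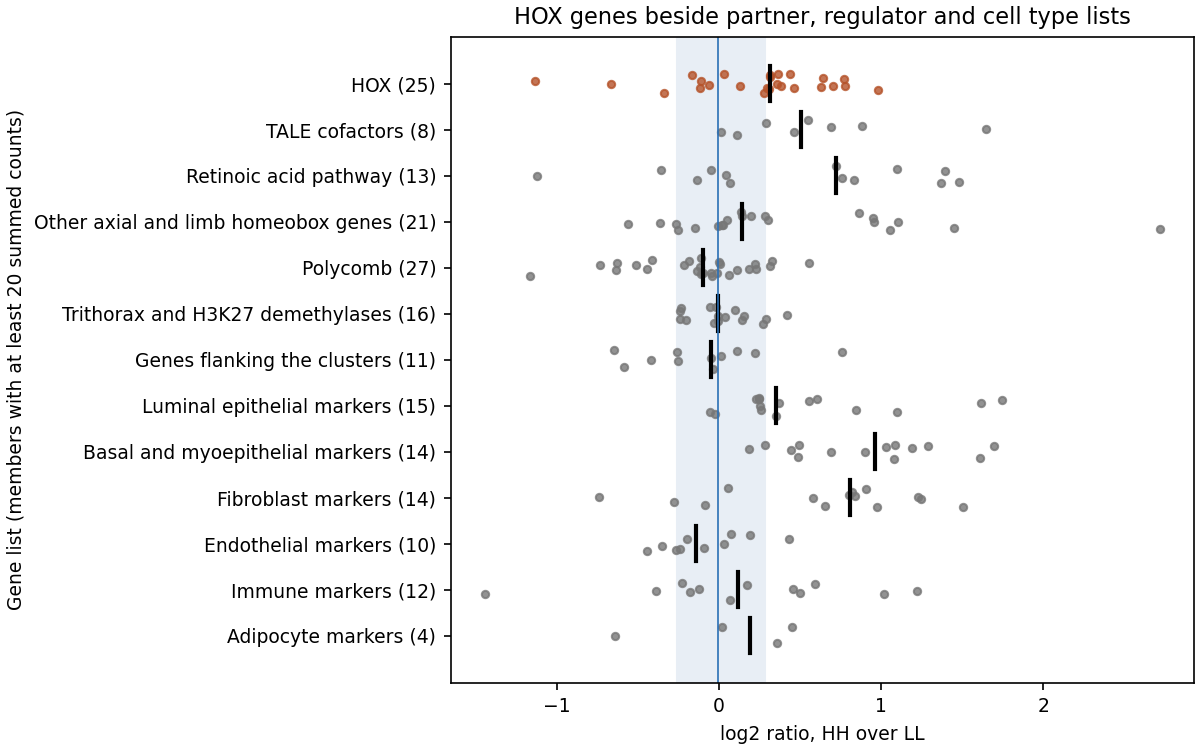
Log2 ratio of HH over LL (x axis) of each gene with at least 20 summed counts in the HOX set and 12 lists (rows, number of genes in parentheses); black bars are list medians, the band spans the quartiles of all genes and the blue line is their median. The HOX median is 0.31, the TALE cofactor median 0.51, and the basal and fibroblast marker medians 0.96 and 0.81.

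Basal, fibroblast and luminal markers leaned towards HH, as the HOX sum did, while endothelial markers leaned towards LL. In bulk libraries fewer cells of a type and less RNA per cell cannot be told apart. The 14 basal and myoepithelial markers had a median log2 ratio of 0.96, all 14 above 0 and 5 past 2-fold in HH, where 1.87% of all genes were, and their summed level was 4714 CPM in HH and 2462 in LL. Their past-2-fold members were KRT14 (1.70), KRT17 (1.61), KRT5 (1.29), LAMB3 (1.19) and ITGB4 (1.08), and ITGA6 (0.18) and TP63 (0.28) were lowest. The count of 5 was 4 to 7 over the scalings. The 14 fibroblast markers had a median of 0.81, with 11 above 0 and 1 past 2-fold, MMP2 at 1.51, or 2 by total counts, and summed levels of 1094 and 784 CPM. FAP was at 1.25 and POSTN and COL3A1 at −0.74 and −0.28. The 15 luminal markers had a median of 0.35, with 3 past 2-fold, KRT18 (1.74), CLDN4 (1.61) and CLDN3 (1.10), and summed levels of 10030 and 6763 CPM. PGR and MUC1 were at −0.06 and −0.03.

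Endothelial markers had a median of −0.15 over 10 genes, from VWF at −0.44 and CDH5 at −0.35 to CLDN5 at 0.19 and TIE1 at 0.43, and summed levels of 1013 and 1177 CPM. Immune markers had a median of 0.12 over 12 genes, from CD68 at −0.23 and CD14 at −0.18 to CD3E at 1.02 and CD3D at 1.22 among those with at least 100 counts, and summed levels of 292 and 286 CPM. Adipocyte markers had a median of 0.19 over 4 genes, with FABP4 at −0.64, PLIN1 at 0.02 and LPL at 0.36, and summed levels of 231 and 331 CPM. None of these 3 lists held a gene past 2-fold among those with at least 100 counts, where 2.87% of all genes were. No marker of the 6 lists was at 0 in both libraries, and LEP, with 1 count in HH, was the one at 0 in LL. The part of cell mixture in the HOX ratios was not tested.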

How the data were processed

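Per the labels' protocols, total RNA was extracted with TRIzol, treated with DNase I and made into libraries with an Ion Total RNA-Seq kit. The authors deposited whole-number read counts per gene in 1 table with the columns HH and LL, and read counts per miRNA tag in 1 file for each small RNA library. The aligner, counter, strand setting, genome build and annotation are not stated in the labels or file headers.

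Counts were scaled with TMM factors over all genes (edgeR 4.0.16, R 4.3.3). Each HH over LL ratio carries an exact (Clopper-Pearson) 95% interval from the binomial share of HH in both counts (scipy 1.17.1). A gene was called past 2-fold when the whole interval lay past it, among genes with at least 100 summed counts. List medians used members with at least 20. Where a library had 0 counts no ratio is printed. CPM are counts per 1000000 scaled counts. Small RNA tags were summed per precursor, 7087726 and 9059038 reads.

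All 37 HOX symbols matched the RefSeq table of ARS-UCD2.0. HOX genes with at least 100 counts were described in full, the others by range and counts. Of each list the called genes, the highest 2 and the lowest 2 with at least 100 counts were named. Others (the PBX2, IRX6, MIR196B, EPCAM, KRT8, PECAM1, PTPRC and PDGFRA genes, the LOC genes, those at 0) were chosen after their values were seen. The members and lists were chosen with earlier results of these data known. Alternatives were total counts, DESeq2 1.42.0 size factors, the upper quartile, TMM over mRNA genes, lower count minimums, the ratio without its interval and a threshold of 4-fold. The steps were tested on simulated counts of genes with at least 100 counts, with counting noise only and no spread between animals or libraries. Of genes changed 3-fold 94.0% were called, and 95.3% of intervals held the true ratio. This test cannot show how calls would hold between cows. Results on a few genes under these rules are not reported here, in text or plots.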

Additional observations from a re-analysis of the deposited data

How the results depend on the processing

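Over the scalings (total counts, DESeq2 size factors, upper quartile and TMM over genes of the type mRNA), the log2 ratio of summed HOX counts ranged from 0.18 to 0.25, that of groups 1 to 8 from 0.31 to 0.37 and that of group 9 from −0.09 to −0.02. All 17 HOX genes with at least 100 counts kept the sign of their ratio. Among these 17 no whole interval lay past 2-fold under any of these scalings or past 4-fold under TMM, and under TMM no point ratio was past 2-fold. By total counts the point ratio of HOXA4 was 1.03. With a minimum of 20 counts, or none, no whole interval was past 2-fold under TMM, while the point ratio of HOXD10 was −1.14. Alternatives chosen after seeing the data moved some values. The HOX genes with intervals above 0 numbered 3 under the upper quartile in place of 6. The summed HOX ratio was 0.29 without HOXA9 and 0.12 without genes of overlapping spans, and the HOXA ratio was 0.61 without HOXA9; these sums hold fewer genes. The ratio of bta-mir-10b reversed to −0.023 under the upper quartile, and that of bta-mir-10a fell to −0.46, as this scaling shifts every precursor by −0.30. No paired analysis was possible because each title has 1 RNA-seq library. Depth limits the 20 HOX genes with under 100 counts most.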
